A study of Mus musculus with 16 samples.

Results

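The endoplasmic reticulum (ER) chaperones and the unfolded protein response were followed through 10 genes, taken by their symbols from the 49452 genes in each expression table. They were *Hspa5*, *Hsp90b1*, *Pdia3*, *Pdia4*, *Pdia6*, *Calr*, *Canx*, *Sdf2l1*, *Ddit3* and *Xbp1*, and each was present as 1 entry in all 16 mice. RNA was sequenced from tdTomato-positive cells sorted from the left lung lobe of 4 groups of 4 mice, all 11 weeks old and 14 days after saline or bleomycin, a drug that injures the lung and leads to fibrosis. Each of 2 lines, called *Acta2-tdT* and *Pdgfra-tdT*, was given either agent. *Acta2-tdT* mice (Acta2-CreERT2; tdTomatoflox) label cells in which the promoter of the smooth muscle actin gene drives a tamoxifen-activated Cre. They ate tamoxifen food of 400 mg/kg from 5 days after treatment, saline controls included, so that cells turning on *Acta2* during the injury could also be labelled. *Pdgfra-tdT* mice (Pdgfra-CreERT2; tdTomatoflox) label cells with an active promoter of *Pdgfra*, a growth factor receptor gene of fibroblasts. They were given 5 injections of 3 mg tamoxifen at 6 weeks of age, before saline or bleomycin. The timing and route of labelling therefore differ together with the line and cannot be told apart from it. Every library was made with SmartSeq2, a method for small samples of cells that amplifies whole cDNAs and does not keep the strand.

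Proteins that are to be secreted or placed in membranes fold in the ER. BiP (*Hspa5*) and GRP94 (*Hsp90b1*) hold unfolded chains, disulfide isomerases (*Pdia3*, *Pdia4*, *Pdia6*) form and rearrange disulfide bonds, and calreticulin (*Calr*) and calnexin (*Canx*) hold glycoproteins by their sugars. *Sdf2l1* encodes a cofactor of BiP. When unfolded protein builds up, the sensors IRE1, PERK and ATF6 start the unfolded protein response: IRE1 splices the *Xbp1* mRNA, ATF6 is cut to an active factor, and PERK favours the translation of ATF4, which turns on *Ddit3* (CHOP), a factor known from ER stress and cell death. XBP1 and ATF6 act on the ER stress response element, or ERSE, a CCAAT box and a CCACG box set 9 bases apart. Cells that secrete much protein, such as collagen-producing fibroblasts and plasma cells, are rich in these chaperones.

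Exact ERSE sequences (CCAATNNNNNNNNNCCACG, searched on both strands) were present in 5 of the 10 genes' promoters, taken from RefSeq (GRCm38.p6) as the 250 bases before to 50 bases after the start. All 10 genes had a promoter in that table, and 0.119% of all 32851 promoters of this length in it held the element. The sites are shown because the element is the one through which the response is known to act on these genes. Letters in capitals mark both boxes of each site. On the opposite strand they read CGTGG and ATTGG. The *Hspa5* site, at chr2:34772025-34772043 on the plus strand, lies 65 to 47 bases before the RefSeq start, inside the first exon of a GENCODE transcript that begins further upstream. The other windows overlap no GENCODE exon. They are *Hsp90b1* at chr10:86705513-86705676 on the minus strand, *Pdia6* at chr12:17266471-17266529 on the plus strand, *Calr* at chr8:84847055-84847113 on the minus strand and *Canx* at chr11:50325780-50325838 on the minus strand. Each is printed 5′ to 3′ along the gene.
Hspa5: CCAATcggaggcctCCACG
Hsp90b1: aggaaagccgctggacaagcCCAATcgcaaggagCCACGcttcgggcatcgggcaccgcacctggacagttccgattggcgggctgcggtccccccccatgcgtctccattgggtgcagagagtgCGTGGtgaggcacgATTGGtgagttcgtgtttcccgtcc
Pdia6: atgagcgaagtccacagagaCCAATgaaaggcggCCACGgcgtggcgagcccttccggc
Calr: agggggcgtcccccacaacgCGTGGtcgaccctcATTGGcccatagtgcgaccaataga
Canx: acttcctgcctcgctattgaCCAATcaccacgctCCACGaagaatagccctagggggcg

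*Hsp90b1* was the gene among the 10 with 2 sites, one on each strand, beginning 212 and 107 bases before the start. The *Calr* site was on the opposite strand, while those of *Hspa5*, *Pdia6* and *Canx* ran with the gene. The core TGACGTG, bound by XBP1 and ATF6, was found in *Hspa5* alone among the 10, beginning 157 bases before the start, and in 2.01% of all promoters. The second form of the element (ATTGGNCCACG) was in none of the 10 and in 0.0365% of all promoters. The amino acid response core TGATGNAA, bound by ATF4 and CHOP, was likewise in none of the 10, against 3.97% of all promoters. *Pdia3*, *Pdia4*, *Sdf2l1*, *Ddit3* and *Xbp1* held none of these 4 sets of letters within the window. These matches describe the letters only, and no binding was measured.

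Before the genes themselves, 3 properties of the libraries bear on every value. The authors' FPKM (fragments relative to transcript length and library size) did not add up to like totals between mice: the nuclear protein-coding genes summed to 28512 to 137952 FPKM in the other 3 groups but 231058 to 463127 in the *Acta2-tdT* bleomycin mice. Each result is therefore given as FPKM as deposited and as scaled FPKM, in which the nuclear protein-coding genes of every mouse add up to 49122.5. This scaling lowered the median log2 difference of all genes between bleomycin and saline in *Acta2-tdT* from 1.76 to -0.02. Moreover, mouse 3 of the *Pdgfra-tdT* saline group and mouse 5 of the *Pdgfra-tdT* bleomycin group stood apart from their groups, with *Pecam1* at 39.1 and 65.9 FPKM and *Cldn5* at 246 and 741 FPKM, both endothelial genes. Counts of the 10 genes called in comparisons that include them are given with and without them. Signs of library quality moved with the groups too. The median of 1443 olfactory and vomeronasal receptor genes, which lung cells are not known to use, was 0.323 to 0.332 FPKM in *Acta2-tdT* saline mice and 0.0134 to 0.122 with bleomycin. In *Pdgfra-tdT* mice it was 0.175 and 0.0917 in mice 3 and 5 and 0.295 to 0.336 in the other 6. Between saline and bleomycin in *Acta2-tdT*, genes at 1 FPKM or more went from 8228 to 10809 to 12603 to 13572, and the nuclear protein-coding share of all FPKM from 15% to 20% to 30.4% to 48.2%. The part of these properties in the differences was not tested, beyond subtracting the receptor median before scaling. Of the genes behind the labels, *Acta2* was at 139 to 314 FPKM in *Acta2-tdT* saline and 1229 to 3211 FPKM in *Acta2-tdT* bleomycin mice, but after scaling these overlapped, at 186 to 267 and 223 to 341. *Pdgfra* was low in the *Pdgfra-tdT* mice, at 2.14 to 3.82 FPKM with saline and 0.977 to 2.45 with bleomycin, and it was at 2.49 to 11.9 FPKM in *Acta2-tdT* bleomycin mice, all above the *Pdgfra-tdT* bleomycin mice as deposited. After scaling *Pdgfra* was at 0.529 to 1.26 in *Acta2-tdT* bleomycin mice and at 2.91 to 4.95 with saline and 0.873 to 2.33 with bleomycin in *Pdgfra-tdT* mice, so that the bleomycin groups overlapped. The fibroblast collagen gene *Col1a1* was at 0.296 to 13.3 FPKM in the *Pdgfra-tdT* mice.

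**Figure D1:**
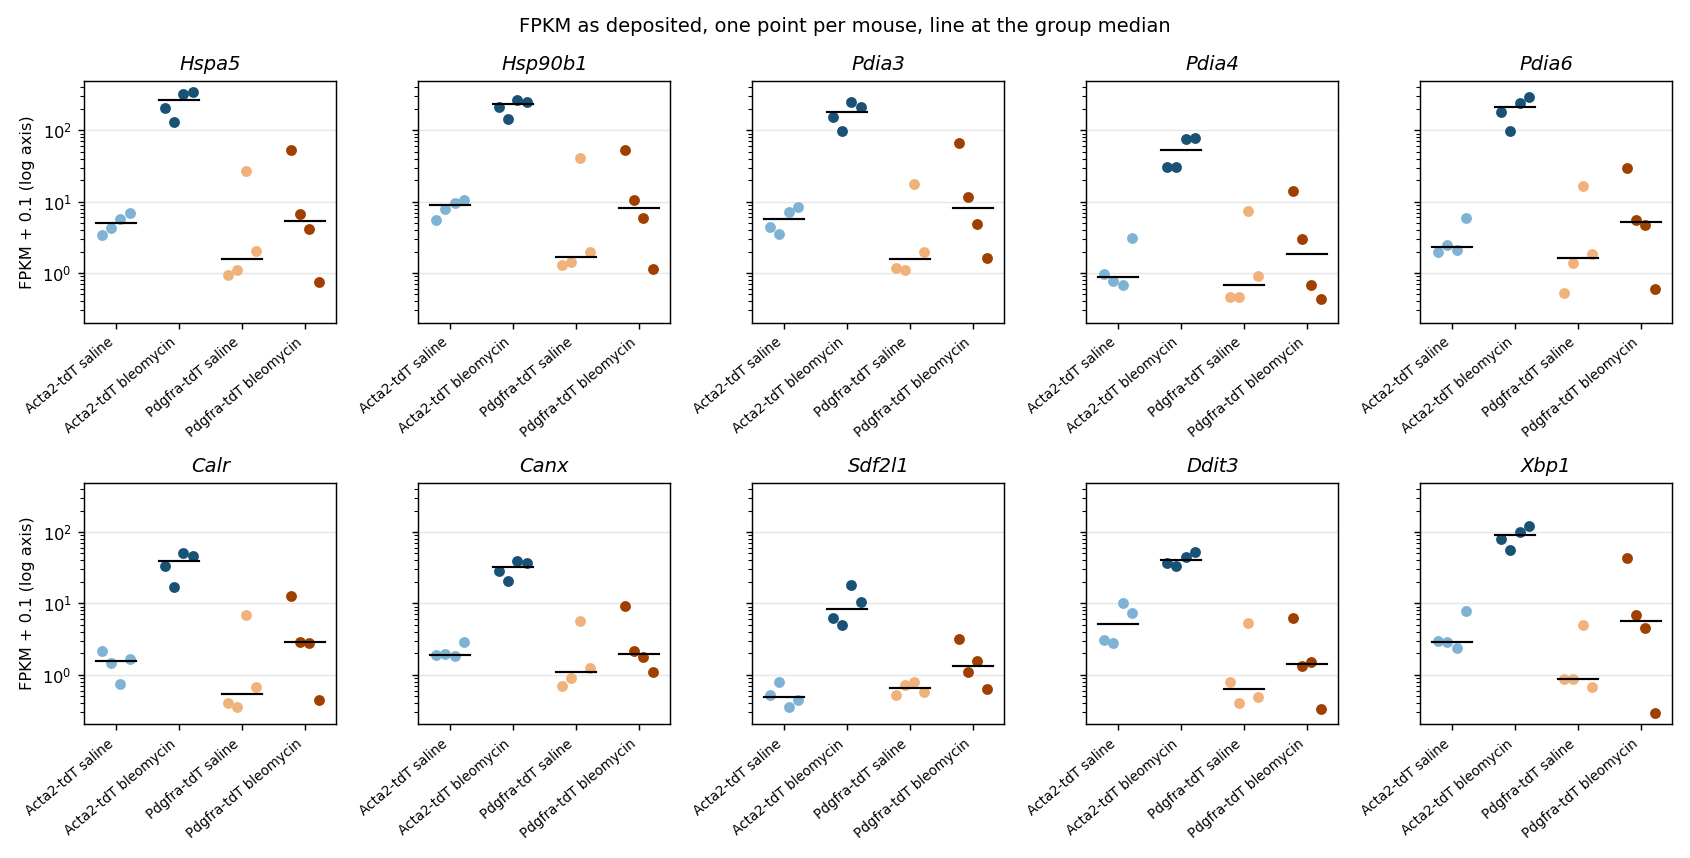
FPKM as deposited + 0.1 (log axis) of each of the 10 genes in each mouse, with the 4 groups along each horizontal axis, one point per mouse and a line at the group median. In all 10 panels the *Acta2-tdT* bleomycin mice lie above all *Acta2-tdT* saline and *Pdgfra-tdT* bleomycin mice. The share of all genes that separate in this way was not counted. As deposited, 70.4% and 71.0% of all genes tested were called higher in these comparisons.

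Bleomycin against saline in *Acta2-tdT* asked how labelled cells of the smooth muscle actin line differ in the injured lung. As deposited, all 10 genes were higher with bleomycin, where 70.4% of all 12523 genes tested were called higher at an adjusted p under 0.05 (limma on log2(value + 1), Benjamini-Hochberg over all genes tested). After scaling, 9 of the 10 were higher, against 23.9% of all genes, and *Ddit3* was not called. The median log2 difference of the 10 was 4.41 as deposited and 1.52 after scaling, beside 1.76 and -0.02 for all genes tested. *Sdf2l1* reached 1 FPKM in none, *Pdia4* in 1 and *Calr* in 3 of the saline mice, and each did in all 4 bleomycin mice, so that these 3 met the minimum of 4 mice through the group in which they were high. Of all calls, 81.2% were higher as deposited and 42.3% after scaling. When all 16 mice shared 1 fit, 5 scaled calls were left (13.3% of all genes were higher), and *Calr* (adjusted p = 0.057), *Xbp1* (0.069), *Hsp90b1* (0.088) and *Canx* (0.093) did not pass. In sorted bulk RNA a larger share of cells of one type cannot be told apart from more RNA per cell.

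**Figure D2:**
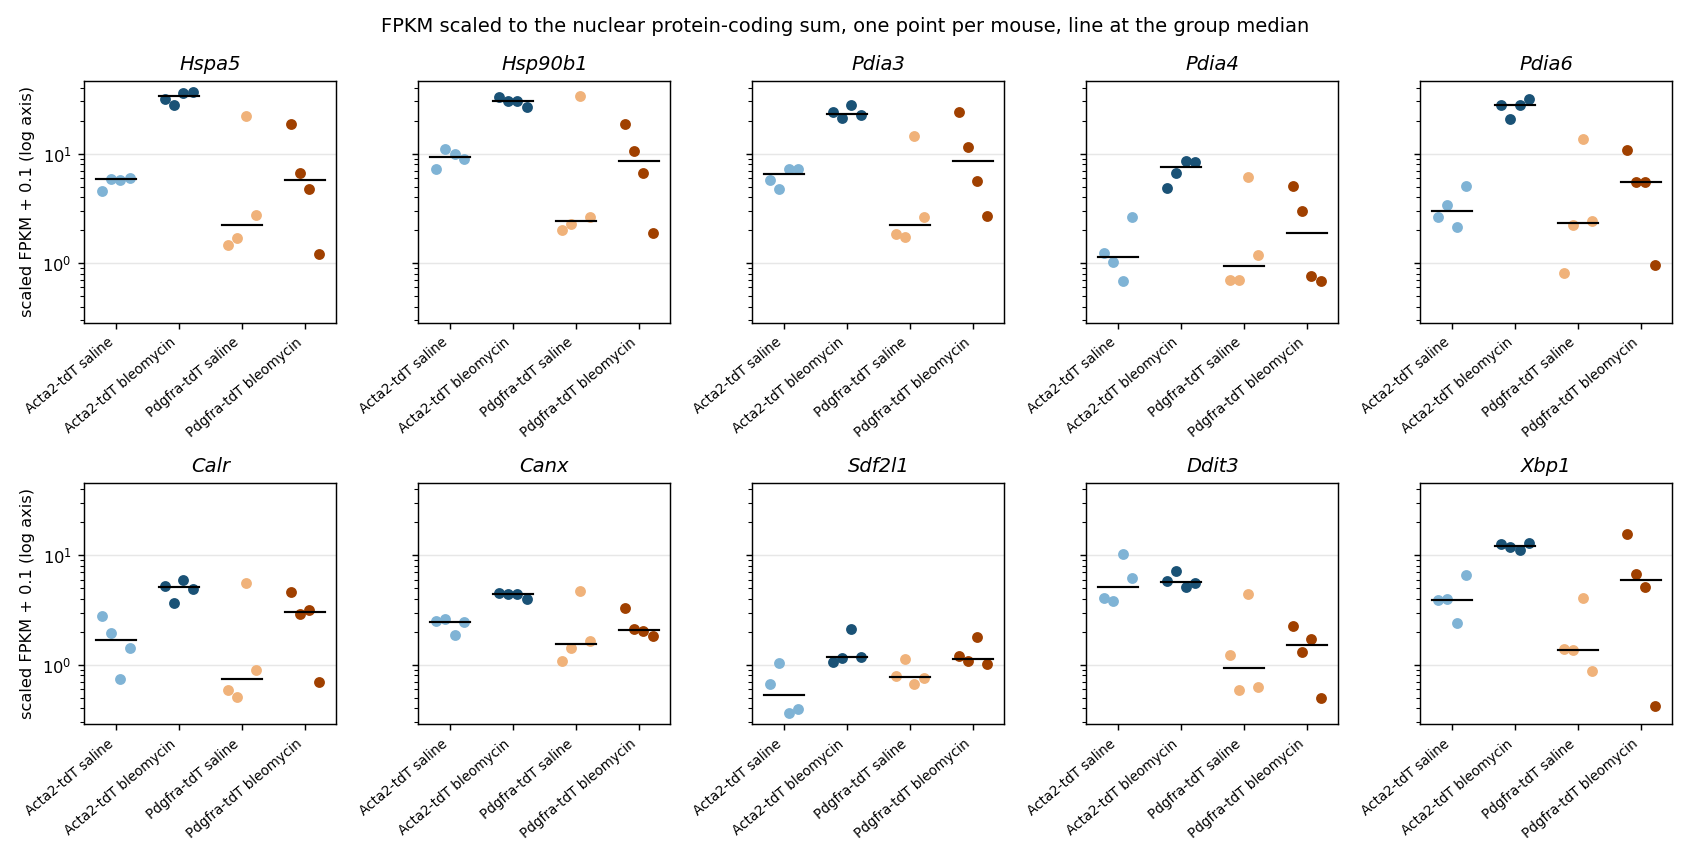
Scaled FPKM + 0.1 (log axis) of each of the 10 genes in each mouse, with the 4 groups along each horizontal axis, one point per mouse and a line at the group median. The *Acta2-tdT* bleomycin mice sit above all *Acta2-tdT* saline mice in 9 panels and among them in the *Ddit3* panel, and mouse 3 is the high point of the *Pdgfra-tdT* saline group in every panel but that of *Sdf2l1*. The share of all genes that separate in this way was not counted. After scaling, 23.9% of all genes tested were called higher with bleomycin in *Acta2-tdT*.

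The general chaperones rose. *Hspa5*, the ER Hsp70 and the most used marker of ER stress, stood at 4.42, 5.81, 5.68 and 5.87 scaled FPKM in the saline mice 1 to 4 and at 31.5, 27.8, 36 and 36.5 in the bleomycin mice 5 to 8. The lowest bleomycin mouse was far above the highest saline mouse, and the means were 5.45 ± 0.685 and 32.9 ± 4.11 (SD, n = 4). The fitted log2 difference was 2.40 (SE 0.23, adjusted p = 2.8e-05), and 5.32 as deposited (SE 0.43, adjusted p = 1.1e-05). *Hsp90b1*, the ER member of the Hsp90 family, was higher than *Hspa5* in every saline mouse, at 7.13, 10.9, 9.74 and 8.80 scaled FPKM. With bleomycin it reached 33.0, 30.1, 30.2 and 26.5, without overlap with saline. Its scaled log2 difference was 1.62 (SE 0.24, adjusted p = 0.00033). The ratio of *Hsp90b1* to *Hspa5*, which does not depend on scaling between mice, was 1.5 to 1.87 in saline mice and 0.726 to 1.09 in bleomycin mice, so that BiP mRNA gained on GRP94 mRNA in all 4.

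Of the disulfide isomerases, *Pdia6* had the largest difference among the 10 genes on either scale. This isomerase works with BiP, and its promoter carries one of the ERSE sites printed above. Scaled FPKM were 2.52, 3.28, 2.03 and 4.94 with saline and 27.8, 20.8, 27.5 and 31.2 with bleomycin, a log2 difference of 2.76 (SE 0.28, adjusted p = 3.1e-05). *Pdia4*, an isomerase of the same BiP-containing complex, was at 1.15, 0.924, 0.584 and 2.54 with saline and at 4.75, 6.55, 8.39 and 8.23 with bleomycin. Its saline values rest on few reads, since the bounds of its deposited FPKM imply only about 29.1 to 162 fragments. It rose by 1.84 on the log2 scale after scaling (SE 0.28, adjusted p = 0.0004). *Pdia3*, which works on glycoproteins held by calreticulin and calnexin, went from 5.66, 4.68, 7.11 and 7.10 to 23.9, 21.1, 27.7 and 22.4 scaled FPKM. It rose by 1.80 (SE 0.24, adjusted p = 0.00015). The groups did not overlap for any of these 3 isomerases, and the share of all genes without overlap was not counted.

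The lectin chaperones rose by smaller amounts on the log2(value + 1) scale, which understates the change of low genes. The ratio of the scaled group medians was 3.12 for *Calr* and 1.84 for *Canx*, beside 3.26 for *Hsp90b1*. *Calr* was at 2.71, 1.86, 0.647 and 1.34 scaled FPKM with saline and at 5.15, 3.57, 5.80 and 4.83 with bleomycin, a log2 difference of 1.19 (SE 0.27, adjusted p = 0.0038). *Canx*, the membrane-bound partner of *Calr*, was at 2.41, 2.53, 1.76 and 2.35 against 4.43, 4.38, 4.36 and 3.87. The log2 difference of *Canx* was 0.69 (SE 0.17, adjusted p = 0.0063). The groups were separate for both genes. *Sdf2l1* was the gene with the lowest level, at 0.562, 0.944, 0.260 and 0.296 scaled FPKM with saline and 0.961, 1.04, 2.01 and 1.09 with bleomycin. Its saline values stand for about 5 to 11 fragments per mouse, and the difference of 0.59 (SE 0.19, adjusted p = 0.026) was the least certain of the 9 calls. As deposited, its saline values (0.257 to 0.684 FPKM) lay about the receptor gene median of those mice (0.323 to 0.332), while its bleomycin values (4.91 to 17.8) were far above theirs (0.0134 to 0.122), so that its saline level cannot be told from background. With that median subtracted before scaling, the difference was 0.88 (adjusted p = 0.0023). The highest saline and the lowest bleomycin mouse were almost level.

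The genes for both transcription factors parted. *Xbp1*, the target of IRE1, was at 3.77, 3.88, 2.30 and 6.53 scaled FPKM with saline and at 12.5, 11.8, 11.2 and 12.9 with bleomycin. It rose by 1.41 on the log2 scale (SE 0.27, adjusted p = 0.0016), with separate groups. Values per gene do not tell spliced from unspliced *Xbp1* mRNA, so that IRE1 activity was not measured here. *Ddit3*, the CHOP gene, was at 3.94, 3.76, 10.1 and 6.14 scaled FPKM with saline and 5.69, 7.06, 4.99 and 5.51 with bleomycin. The bleomycin mice lay within the saline range, and the log2 difference was 0.04 (SE 0.30, adjusted p = 0.91). Leaving out single mice moved it between -0.11 and 0.30. As deposited, *Ddit3* was higher in all 4 bleomycin mice (33.2 to 52.0 against 2.73 to 10.01 FPKM) by 2.80 (SE 0.43, adjusted p = 0.00014). Whether *Ddit3* was called thus rests on the scaling. On both scales its difference was near or above the median of all genes tested (0.04 beside -0.02, and 2.80 beside 1.76). The *Ddit3* locus overlaps *Mars* and *Gm4189* on the other strand, and reads of these cannot be told apart without strand. It also overlaps a second annotated *Ddit3* entry on the same strand, which strand would not separate either. *Hsp90b1*, *Pdia3* and *Pdia6* overlap *1810014B01Rik*, *Catsper2* and *Atp6v1c2* on the other strand. On the same strand *Hsp90b1* overlaps *Gm15344* and *Gm25745*, and *Pdia4* overlaps *Mir704*.

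**Figure D3:**
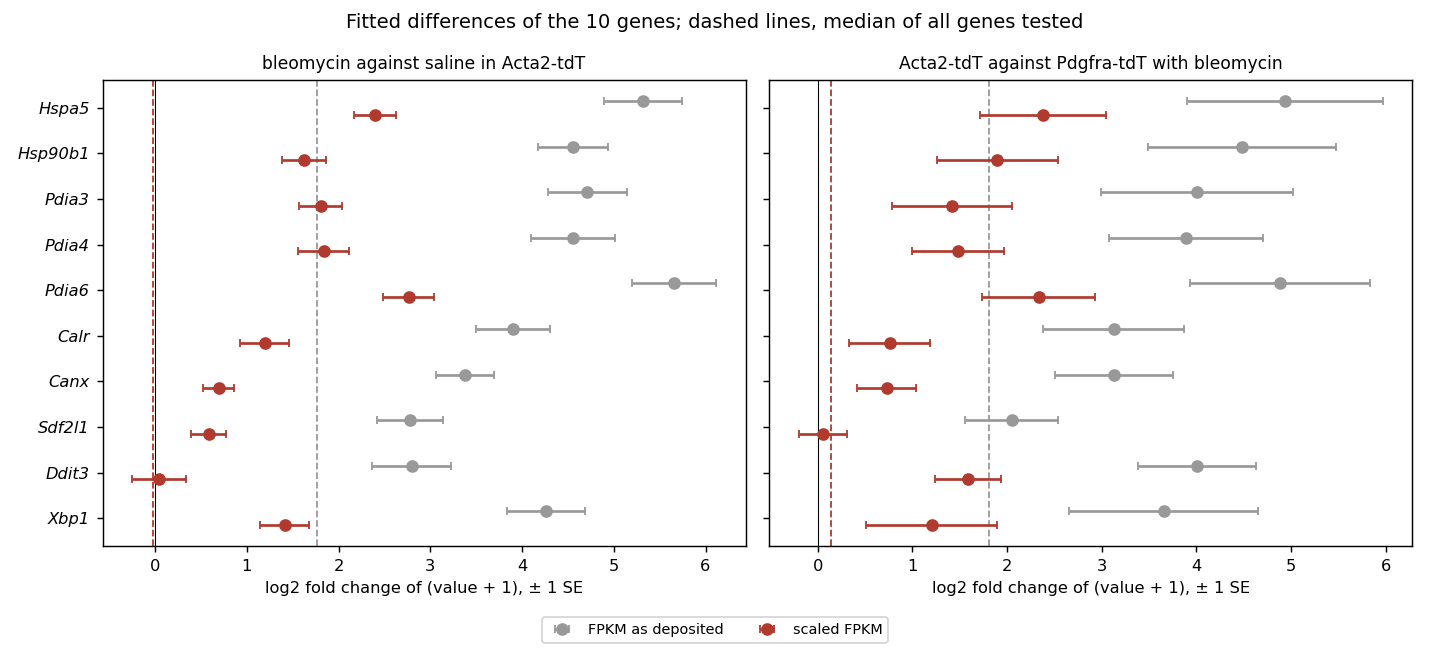
Fitted log2 differences of (value + 1) with bars of 1 SE for the 10 genes, grey for FPKM as deposited and red for scaled FPKM, on the left for bleomycin against saline in *Acta2-tdT* and on the right for *Acta2-tdT* against *Pdgfra-tdT* with bleomycin. Dashed lines mark the median of all genes tested; on the left *Pdia6* and *Hspa5* lie farthest to the right on both scales, and the scaled value of *Ddit3* lies at 0.04.

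Ratios between genes of one mouse need no scaling. The ratio of *Ddit3* to *Hspa5* was 0.890, 0.648, 1.78 and 1.05 in the *Acta2-tdT* saline mice and 0.180, 0.254, 0.139 and 0.151 in the bleomycin mice. All 4 bleomycin mice were below all 4 saline mice. The ratio of *Pdia6* to *Hspa5* was 0.357 to 0.842 in saline mice and 0.750 to 0.881 in bleomycin mice, and these ranges overlap. *Canx* to *Hspa5* was 0.309 to 0.544 in saline mice, against 0.106 to 0.158 in those given bleomycin. Summed, the 10 genes made up 0.0698%, 0.0784%, 0.0819% and 0.0934% of the nuclear protein-coding FPKM in the saline mice and 0.305%, 0.273%, 0.322% and 0.311% in the bleomycin mice. These ratios and sums are given as a description, with no test.

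**Figure D4:**
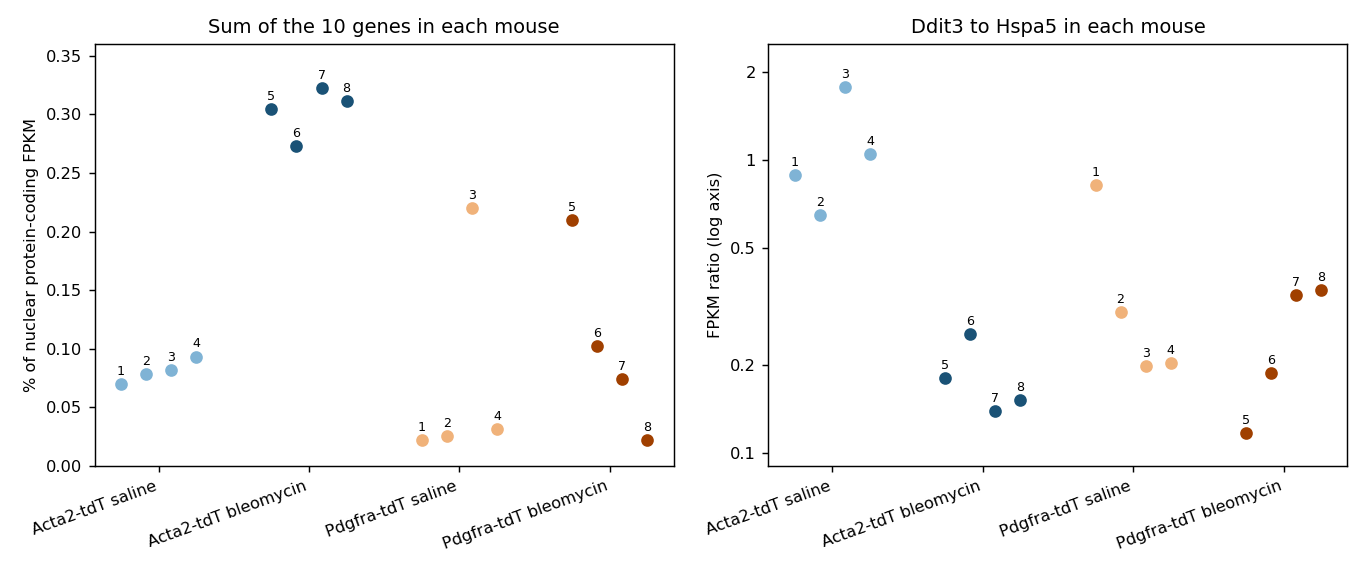
Left, the 10 genes' summed FPKM as a percent of the nuclear protein-coding FPKM, and right, the FPKM ratio of *Ddit3* to *Hspa5* (log axis), with one point per mouse labelled by its number. On the left the *Acta2-tdT* bleomycin mice lie at 0.273% to 0.322% and *Pdgfra-tdT* mice 3 and 5 at 0.220% and 0.210%, and on the right the *Acta2-tdT* bleomycin mice lie at 0.139 to 0.254, below the *Acta2-tdT* saline mice.

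The order of the 10 genes can be compared per length in scaled FPKM. In *Acta2-tdT* saline mice the medians ran from *Hsp90b1* (9.27), *Pdia3* (6.38), *Hspa5* (5.74) and *Ddit3* (5.04) down to *Pdia4* (1.04) and *Sdf2l1* (0.429). With bleomycin *Hspa5* came first (33.8), followed by *Hsp90b1* (30.2), *Pdia6* (27.6) and *Pdia3* (23.2), and *Ddit3* (5.6) stood near *Calr* (4.99). The ranges of *Hspa5* and *Hsp90b1* overlapped in the bleomycin mice, and so did those of *Ddit3* and *Calr*.

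The other genes of the pathway were grouped in lists, and counts are of scaled FPKM in *Acta2-tdT* unless stated, to be read beside the 23.9% of all genes called higher there. A list gene could meet the minimum of 4 mice through the bleomycin group alone, as *Sdf2l1* did. The number of list genes that did so was not counted. Of 11 tested cofactors of the ER Hsp70 and Hsp90, 8 rose, with a median log2 difference of 0.69. *Manf*, a secreted ER protein that stabilises BiP complexes, rose by 1.77 (SE 0.37, adjusted p = 0.0025), *Creld2* by 1.53 (SE 0.37, adjusted p = 0.0064) and *Dnajb11*, which delivers clients to BiP, by 1.46 (SE 0.18, adjusted p = 8.9e-05). *Dnajb9*, a target of spliced XBP1, had a difference of 0.33 (SE 0.29, adjusted p = 0.35). *Hyou1*, the largest ER Hsp70 relative and a partner of BiP, was too low to test, at 0.126 to 0.351 scaled FPKM with bleomycin. The cofactors' median lay between those of all genes tested (-0.02) and of the 10 genes (1.52).

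Among 10 tested further isomerases and ER oxidases, 7 rose and 2 fell, with a median of 0.90. *P4hb*, an isomerase that is also a subunit of collagen prolyl hydroxylase, was at 6.49 to 9.34 scaled FPKM with saline and 44.1 to 63.4 with bleomycin, a log2 difference of 2.73 (SE 0.25, adjusted p = 2.5e-05). *Txndc5*, known from fibroblasts, rose by 1.48 (SE 0.18, adjusted p = 8.9e-05). *Ero1l*, the oxidase that feeds disulfide bonds into the ER and a known CHOP target, fell by 0.58 (SE 0.12, adjusted p = 0.0022), although as deposited it was higher by 0.74 (SE 0.24, adjusted p = 0.014). *Txndc11*, named after its value was seen because it was the other of the 2, likewise went from 1.80 as deposited to -0.53 after scaling (adjusted p = 0.041). Of 7 tested genes of the lectin cycle, 5 rose (median 0.76). Of 22 genes of the translocon, the signal peptidase and the oligosaccharyltransferase, 16 rose (median 1.05), with *Ddost*, a subunit of the last, at 2.32 (SE 0.27, adjusted p = 6.3e-05) and *Sec61b* of the translocon at 1.76 (SE 0.31, adjusted p = 0.00093).

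ER-associated degradation and the stress branches were mixed. Of 14 tested degradation genes, 9 rose (median 0.76), but *Herpud1* (0.40, adjusted p = 0.37), *Edem1* (0.22, adjusted p = 0.26) and *Sel1l* (-0.02, adjusted p = 0.91) did not pass. These 3 are among the well-known targets and parts of the response. Of the sensors and the proteases that cut ATF6, 4 were tested and 1 rose, a share near that of all genes, the protease gene *Mbtps1* (0.44, adjusted p = 0.018), named after its value was seen. *Ern1* (IRE1) had a difference of -0.04 (adjusted p = 0.95) and *Atf6* of 0.08 (adjusted p = 0.42), while *Eif2ak3* (PERK) was too low to test. In the PERK and ATF4 branch 5 of 11 tested genes rose (median 0.63). *Atf4* rose by 1.17 (SE 0.21, adjusted p = 0.001) and *Asns*, the asparagine synthetase gene and an ATF4 target, by 1.67 (SE 0.16, adjusted p = 2.6e-05). *Atf3* (0.35, adjusted p = 0.25) and *Ppp1r15a* (0.12, adjusted p = 0.72), which act beside or after CHOP, did not pass, and *Trib3* was too low to test.

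Chaperones outside the ER served as a comparison. Of 14 tested, 12 rose, with a median of 0.89. *Hspa8*, the constitutive Hsp70 of the cytosol, rose by 1.96 (SE 0.24, adjusted p = 9.2e-05), *Hsp90ab1* by 0.98 (SE 0.24, adjusted p = 0.0062) and the mitochondrial *Hspd1* by 0.75 (SE 0.19, adjusted p = 0.0067). Chaperones of the cytosol and the mitochondria were thus higher as well. As deposited, every tested gene of these 8 lists was higher with bleomycin, beside 70.4% of all genes. The list medians on that scale were 1.65 (the sensors) to 3.92, beside 1.76 for all genes tested.

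**Figure D5:**
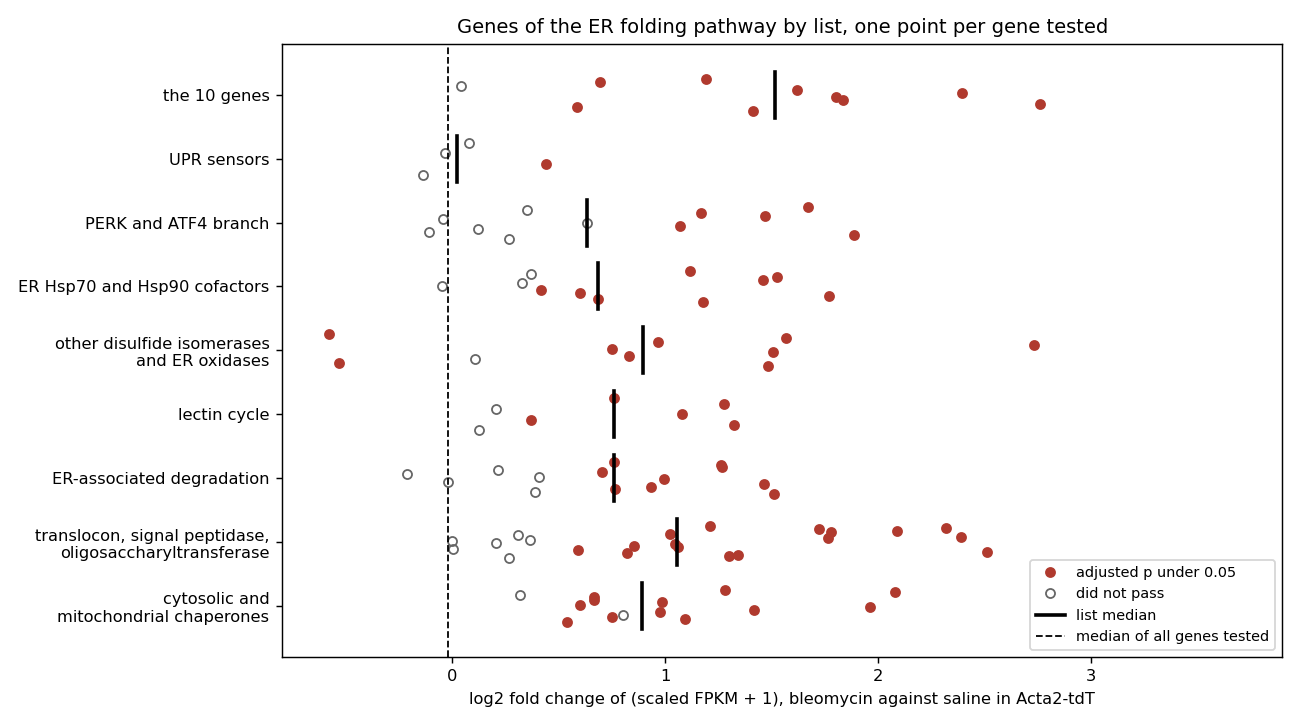
Log2 difference of (scaled FPKM + 1) between bleomycin and saline in *Acta2-tdT*, one point per gene tested, filled where the adjusted p was under 0.05, by list, with the list median as a bar and the median of all genes tested as a dashed line. The 10 genes have the highest list median (1.52), the sensors lie around the dashed line, and *Ero1l* and *Txndc11* are the filled points to its left.

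Markers of other cells moved along with these differences, and their part in them was not tested. The 6 fibroblast markers, collagen genes among them, summed to 16.9 to 36.3 FPKM in *Acta2-tdT* saline mice and 918 to 2641 in bleomycin mice, or 22.5 to 30.8 and 195 to 280.1 after scaling. *Col1a1* went from 1.76 to 2.44 FPKM to 275 to 1002. The 7 macrophage markers summed to 53.7 to 166 scaled FPKM with saline and 165 to 508 with bleomycin, with *Lyz2* and *Cd68* detected in every mouse. The 7 neutrophil markers summed to 1023 to 1529.9 scaled FPKM with saline and 131 to 884 with bleomycin. Of 6 tested, 4 were lower after scaling, while 5 were higher as deposited. The sums of the 5 smooth muscle markers overlapped after scaling (221 to 321 against 286 to 438). Of 5 tested, 4 were higher as deposited and 1 after scaling. As deposited, *Myh11* went from 7.31 to 13.2 FPKM to 14.4 to 20.7, and *Des* from 7.75 to 16.2 to 199 to 583. The sums of the 7 epithelial markers overlapped too (61.5 to 795 against 37.7 to 240.4). Of 5 tested epithelial markers, 5 were higher as deposited and 1 after scaling. The 9 plasma cell and B cell markers summed to 12.02 to 158 and 3.96 to 16.5 scaled FPKM, and of 4 tested, 1 was higher as deposited and, after scaling, 1 was higher and 2 were lower. *Jchain* and *Mzb1* were at 0 in 2 of the 4 bleomycin mice and below 0.75 FPKM in the others, whereas *Sdc1* went from 0.120 to 0.472 FPKM with saline to 6.29 to 20.6 with bleomycin, and *Ighm* was at 0.777 to 24.7 and 2.81 to 26.3. The 6 endothelial markers (7.07 to 10.8 against 2.56 to 4.86) and the 7 T cell markers (4.72 to 6.49 against 0.444 to 1.53) had lower scaled sums with bleomycin. As deposited, 2 of 3 tested endothelial markers were higher and 0 of 3 T cell markers passed, and after scaling 1 and 3 were lower.

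In *Pdgfra-tdT* mice none of the 10 genes was called between bleomycin and saline. *Pdia4* and *Sdf2l1* reached 1 FPKM in fewer than 4 of the 8 mice and were not tested, and none of the other 8 passed on either scale, where limma called 0.124% of 7275 genes as deposited and 0.137% after scaling. None of the 8 had an unadjusted p under 0.05 either. The median log2 difference of these 8 was 0.90 as deposited and 0.48 after scaling, beside 0.02 and -0.25 for all genes tested. The spread was wide. *Hspa5* was at 1.36, 1.61, 21.9 and 2.64 scaled FPKM in the saline mice 1 to 4 and at 18.5, 6.53, 4.70 and 1.11 in the bleomycin mice 5 to 8. A single mouse was high in each group. Its log2 difference of 0.45 had an SE of 0.90, larger than the difference itself.

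The same mice were high for nearly all 10 genes. Saline mouse 3 had *Hsp90b1* at 33.4 scaled FPKM against 1.93 to 2.51 in the other 3, *Pdia6* at 13.5 against 0.708 to 2.34, and *Calr* at 5.52 against 0.409 to 0.787. Compared with the *Acta2-tdT* bleomycin mice it was above their range for *Hsp90b1*, within it for *Calr* and below it for *Pdia6*. *Sdf2l1* was the exception, at 0.566 in mouse 3 against 0.649 to 1.02 in the others. Bleomycin mouse 5 led its group for *Hspa5* (18.5), *Hsp90b1* (18.7), *Pdia3* (23.8) and *Xbp1* (15.6, against 0.324 to 6.72). In both mice the endothelial markers were high, at 365 and 957 summed FPKM beside group medians of 8.90 and 67.1, and the sum of the 10 genes was 0.220% and 0.210% of the nuclear protein-coding FPKM. The other *Pdgfra-tdT* saline mice were at 0.0222%, 0.0257% and 0.0314%, and bleomycin mice 6, 7 and 8 at 0.103%, 0.0739% and 0.0222%. Whether the endothelial signal accounts for the chaperone levels was not tested. Without both mice, 3 of the 10 genes were still tested and 0 were called. When noisy mice were given less weight (limma arrayWeights), 4 were higher with bleomycin after scaling, where 20.6% of all genes were. In the 8 lists of other pathway genes, 0 passed on either scale in *Pdgfra-tdT*.

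*Xbp1* had the largest difference among the 8 tested genes in *Pdgfra-tdT*. It was at 1.28, 1.26, 3.95 and 0.769 scaled FPKM with saline and at 15.6, 6.72, 5.08 and 0.324 with bleomycin. Of the bleomycin mice 3 were above every saline mouse, and 1 was below. The last, mouse 8, was at 0.188 FPKM as deposited, with a lower bound of 0 and about 2.59 implied fragments. That value was below the receptor gene median of the mouse, 0.311. Saline mice 1, 2 and 4 rested on about 14.1, 18.9 and 13.2 fragments. The log2 difference was 1.13 (SE 0.75, adjusted p = 0.78) after scaling and 1.57 (SE 1.03, adjusted p = 0.79) as deposited. *Ddit3* was at 0.487 to 4.33 scaled FPKM with saline and 0.401 to 2.16 with bleomycin, with a difference of 0.00 (SE 0.48). These values stand for about 5.04 to 63.2 and 2.16 to 71.2 fragments. The 7 macrophage markers summed to 21.9 to 119 scaled FPKM with saline and 601 to 1545 with bleomycin, and of the 2 that could be tested none was called on either scale (both had an unadjusted p under 0.05). Their part in these values was not tested.

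The lines were next compared within each treatment. With saline, none (0 of 8 tested) was called between *Acta2-tdT* and *Pdgfra-tdT* on either scale, where 2.91% of 8153 genes were called as deposited and 3.42% after scaling. *Ddit3* had the lowest unadjusted p in limma on both scales (0.012 after scaling). It was higher in *Acta2-tdT* by 1.55 after scaling (SE 0.49, adjusted p = 0.15). In the *Pdgfra-tdT* saline mice its values stand for about 5.04 to 63.2 fragments. The count of 0 depended on the high *Pdgfra-tdT* mouse 3. Without it, 6 of 7 tested genes were higher in *Acta2-tdT* on both scales, where 24.4% of all genes were called higher as deposited and 23.5% after scaling. With 3 *Pdgfra-tdT* mice left, a gene could meet the minimum of 4 mice only with the help of the *Acta2-tdT* group. Of the 6 genes, *Hsp90b1* reached 1 FPKM in all 3, *Pdia3* in 2, *Hspa5* and *Canx* in 1, and *Ddit3* and *Xbp1* in none, against all 4 *Acta2-tdT* mice for each, so that the count of 6 is no support for a difference of the 10. After scaling *Ddit3* differed by 1.96 (adjusted p = 0.0051), *Hsp90b1* by 1.65 (adjusted p = 0.0021), *Pdia3* by 1.26 (adjusted p = 0.0056), *Xbp1* by 1.23 (adjusted p = 0.015), *Hspa5* by 1.19 (adjusted p = 0.0066) and *Canx* by 0.51 (adjusted p = 0.045). The neutrophil markers were also higher in *Acta2-tdT* saline mice, at 741 to 1512 summed FPKM against 20.6 to 44.4 in *Pdgfra-tdT*, and their part in these differences was not tested.

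With bleomycin, all 10 genes were higher in *Acta2-tdT* than in *Pdgfra-tdT* as deposited, where 71.0% of 11995 genes were called higher. Without *Pdgfra-tdT* mouse 5 all 10 were still called, beside 78.0% of all genes. Each then met the minimum of 4 mice only with the help of the *Acta2-tdT* group. After scaling 5 were higher, *Hspa5*, *Hsp90b1*, *Pdia4*, *Pdia6* and *Ddit3*, against 15.8% of all genes. All 10 reached 1 FPKM in each *Acta2-tdT* bleomycin mouse, but *Pdia4* and *Sdf2l1* in 2 *Pdgfra-tdT* bleomycin mice and 6 others in 3, so that these 8 met the minimum of 4 mice through the *Acta2-tdT* group. The median log2 difference of the 10 was 3.94 as deposited and 1.45 after scaling, beside 1.81 and 0.14 for all genes tested. Higher calls made up 89.2% of all calls as deposited and 47.4% after scaling. *Hspa5* differed by 2.38 after scaling (SE 0.67, adjusted p = 0.022), with all 4 *Acta2-tdT* mice (27.8 to 36.5 scaled FPKM) above the highest *Pdgfra-tdT* mouse (18.5). *Pdia6* differed by 2.33 (SE 0.60, adjusted p = 0.015), at 20.8 to 31.2 against 0.859 to 10.6. *Ddit3*, which was not called within *Acta2-tdT* after scaling, differed by 1.59 (SE 0.35, adjusted p = 0.0082), at 4.99 to 7.06 against 0.401 to 2.16. After scaling, *Ddit3* thus had the smallest adjusted p of the 10 between the lines and the largest within *Acta2-tdT*. The *Pdgfra-tdT* values of *Ddit3* rest on few reads, since the bounds imply about 71.2, 5.00, 14.0 and 2.16 fragments in mice 5 to 8. In mouse 8 its deposited 0.233 FPKM was below the receptor gene median of that mouse, 0.311.

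Of the other pathway genes after scaling, 12 of 22 tested of the translocon list, 8 of 14 chaperones outside the ER, 5 of 14 degradation genes, 5 of 12 of the PERK and ATF4 branch, 3 of 12 cofactors, 3 of 10 further isomerases and oxidases, 1 of 7 of the lectin cycle and 0 of 5 sensors and proteases were higher in *Acta2-tdT*, beside 15.8% of all genes. Of these lists 1 held a lower gene, that of the isomerases and oxidases, with 1. Here too a list gene could meet the minimum of 4 mice through the *Acta2-tdT* group alone, and such genes were not counted. Without *Pdgfra-tdT* mouse 5 the counts, in the same order, were 15 of 22, 12 of 14, 9 of 14, 5 of 11, 7 of 11, 5 of 10, 5 of 7 and 1 of 4, beside 29.7% of all genes, and 1 isomerase or oxidase gene was lower. Without that mouse every gene needed the *Acta2-tdT* group to meet the minimum of 4 mice.

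Cell markers differed between the lines with bleomycin as well, and their part in these differences was not tested. After scaling, 5 of 5 tested smooth muscle markers (286 to 438 summed scaled FPKM in *Acta2-tdT* against 1.36 to 8.94 in *Pdgfra-tdT*) and 4 of 5 fibroblast markers (195 to 280.1 against 4.11 to 51.8) were higher in *Acta2-tdT*, with list medians of 3.84 and 3.52. Of 6 neutrophil markers 4 were higher (131 to 884 against 14.01 to 52.1). All 4 tested endothelial markers (2.56 to 4.86 against 7.004 to 341) and both T cell markers (0.444 to 1.53 against 4.30 to 8.02) were lower. Of 7 macrophage markers 1 was higher and 1 lower (165 to 508 against 601 to 1545), and 1 of 4 plasma cell and B cell markers and 1 of 5 epithelial markers were higher. As deposited, 5 of 5 smooth muscle, 5 of 5 fibroblast, 6 of 6 neutrophil, 5 of 7 macrophage, 3 of 4 plasma cell and B cell and 4 of 5 epithelial markers were higher, 1 of 2 T cell markers was lower, and 0 of 4 endothelial markers passed.

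The remaining 5 did not pass after scaling. *Xbp1* overlapped between the lines, since *Pdgfra-tdT* mouse 5 (15.6 scaled FPKM) was above all *Acta2-tdT* bleomycin mice, and its difference was 1.2 (SE 0.69, adjusted p = 0.2). *Pdia3* differed by 1.42 (SE 0.63, adjusted p = 0.11), *Calr* by 0.76 (SE 0.43, adjusted p = 0.19), *Canx* by 0.73 (SE 0.31, adjusted p = 0.091) and *Sdf2l1* by 0.06 (SE 0.26, adjusted p = 0.87). *Sdf2l1* was at 0.961 to 2.01 in *Acta2-tdT* and 0.912 to 1.71 in *Pdgfra-tdT*. The count of 5 rested on single mice: it was 1 without *Acta2-tdT* mouse 8, 2 without *Acta2-tdT* mouse 5 or 7 or *Pdgfra-tdT* mouse 7, 3 without *Acta2-tdT* mouse 6, and 8 without *Pdgfra-tdT* mouse 5. The share of all genes called higher moved along, from 5.32% without *Acta2-tdT* mouse 8 to 29.7% without *Pdgfra-tdT* mouse 5. Without the last, *Pdia3* (1.89, adjusted p = 0.013), *Xbp1* (1.72, adjusted p = 0.032) and *Canx* (0.86, adjusted p = 0.023) passed as well.

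Whether bleomycin acted differently in the lines was tested by the interaction over all 16 mice. As deposited, the effect was larger in *Acta2-tdT* for 7 of the 10 genes, where 36.6% of 16605 genes were called in that direction. One of the 7, *Sdf2l1*, reached 1 FPKM in 2 mice outside the *Acta2-tdT* bleomycin group and so entered the test through the 4 mice in which it was high. Of all calls, 92.0% were in that direction as deposited and 59.9% after scaling. *Pdia6* had the largest interaction, 4.79 on the log2 scale (SE 1.23, adjusted p = 0.0074), followed by *Hspa5* with 4.44 (SE 1.38, adjusted p = 0.02) and *Pdia4* with 4.01 (SE 1.06, adjusted p = 0.009). *Hsp90b1* (3.60, adjusted p = 0.051), *Pdia3* (3.26, adjusted p = 0.054) and *Xbp1* (2.69, adjusted p = 0.079) did not pass. After scaling, 0 of the 10 passed, where limma called 2.22% of all genes. The lowest p were those of *Pdia6* (2.32, SE 0.89, adjusted p = 0.17) and *Pdia4* (1.65, SE 0.73, adjusted p = 0.24). The median interaction of the 10 was 3.12 as deposited and 0.67 after scaling, beside 1.05 and -0.25 for all genes tested. Without both *Pdgfra-tdT* mice that stood apart, all 10 passed as deposited, where 49.6% of all genes were called in that direction, although *Pdia4* and *Sdf2l1* then entered the test through the *Acta2-tdT* bleomycin group. After scaling 1 passed, *Pdia6* (2.06, adjusted p = 0.044), where 4.02% were. *Pdia6* was also the 1 gene that passed after scaling with all mice kept under quality weights (limma arrayWeights; 1.80, adjusted p = 0.034), where 3.54% of all genes did in that direction.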

How the data were processed

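Sorted tdTomato-positive lung cells of 16 mice were measured by RNA sequencing. Alignment by the authors was to mm10/GRCm38, with TopHat2 2.1.1 (run on Bowtie2), and Cufflinks 2.1.1 gave each mouse its FPKM per gene. These deposited FPKM, with lower and upper bounds, are the values used. They are not counts, so the depth is unknown; the bounds imply fragment numbers only roughly, about 348258 to 7819320 per mouse on nuclear protein-coding genes. Rows of 1 gene were summed (49534 rows, 49452 genes), and 15 genes with a Cufflinks status other than OK in any mouse were left out. Scaled FPKM bring the 21950 nuclear protein-coding genes of each mouse to the median sum. The mice were grouped by the labels of strain and agent. Genes with at least 1 FPKM in at least 4 mice were tested with limma 3.58.1 (lmFit, eBayes with trend) in R 4.3.3 on log2(value + 1), two-sided, with a Benjamini-Hochberg threshold of 0.05. Folds on this scale understate the change of low genes. The procedure was tested on simulated data.

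Promoters came from RefSeq and gene positions from GENCODE (vM21), both of GRCm38. Of the 10 genes, 9 had the same position in the deposited tables as in GENCODE. The 10 genes and the lists were chosen with earlier results of these data known. Genes named beside the 10 were listed by role (sensors, PERK and ATF4 branch, cofactors, isomerases, degradation, protein entry, chaperones outside the ER) whatever their change, and *Txndc11*, *Mbtps1*, *Dnajc3* and *Syvn1* were added after their values were seen. P-values measure the spread between mice. Alternatives were a pseudocount of 0.1, either no filter or one on the mean (5 FPKM), eBayes without trend, sample quality weights (limma arrayWeights), quantile normalization, median ratio scaling, 1 fit over all mice, leaving out each mouse, and a replicate block. Chosen after seeing the data were leaving out both *Pdgfra-tdT* mice that stood apart and subtracting the median of 1443 olfactory and vomeronasal receptor genes before scaling.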

Additional observations from a re-analysis of the deposited data

Results flagged for a closer look

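Single mice were checked in 80 sets of 4 (10 genes, 4 groups and both scales) for a highest or lowest mouse far from its nearest neighbour on the log2(value + 1) scale. Chance alone gives about 1 in 20, and both scales of a gene share their data. The check picked out 14 sets. Most were mouse 3 of the *Pdgfra-tdT* saline group, the highest of 4 for *Hsp90b1* (5.38 as deposited and 5.10 scaled), *Pdia3* (4.22 and 3.95) and *Calr* (2.95 and 2.70), and as deposited for *Pdia4* (3.05), *Ddit3* (2.65) and *Xbp1* (2.54). In the *Acta2-tdT* saline group, mouse 4 was the highest as deposited for *Canx* (1.91) and *Xbp1* (3.12), and mouse 1 the lowest for scaled *Hspa5* (2.44). In the *Acta2-tdT* bleomycin group, mouse 8 was the lowest for scaled *Canx* (2.28) and mouse 7 the highest for scaled *Sdf2l1* (1.59).

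The effect of bleomycin, as deposited, differed between the lines by the interaction test for *Pdia6* (4.79), *Hspa5* (4.44), *Pdia4* (4.01), *Calr* (2.98), *Canx* (2.88), *Ddit3* (2.47) and *Sdf2l1* (2.17), each the log2 effect in *Acta2-tdT* minus that in *Pdgfra-tdT*. After scaling none of the 10 passed in limma. The nuclear protein-coding sum, by which the scales differ, moved with the *Acta2-tdT* bleomycin group, and its part in these differences was not tested.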

How the results depend on the processing

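The counts of the 10 genes called kept within 1.5 times under 159 alternatives and left that range under 24, and the cause was not tested. The share of all genes called higher under the same alternative stands in parentheses. For bleomycin against saline in *Acta2-tdT*, 9 calls after scaling became 5 when all 16 mice shared 1 fit (13.3%). In *Pdgfra-tdT*, 0 calls after scaling became 4 with sample quality weights (20.6%). Between the lines with saline, 0 calls became 7 as deposited (27%) and 5 scaled (26.6%) with these weights and 6 on both scales (24.4% and 23.5%) without both *Pdgfra-tdT* mice that stood apart, where all but *Hsp90b1* reached 1 FPKM in fewer than 3 of the *Pdgfra-tdT* mice left and were tested through the *Acta2-tdT* group. Leaving out single mice gave 0 to 6 (0.171% to 24.4% as deposited and 0.285% to 23.5% scaled). With bleomycin, 10 calls as deposited became 5 with quantile normalization (17.2%). The 5 scaled calls there became 1 with no filter (1.35%), 3 with a mean FPKM of at least 5 (17.1%), 8 with quality weights (24.5%), 8 without both mice (29.7%), and 1 to 8 without single mice (5.32% to 29.7%). Where *Pdgfra-tdT* mouse 5 was left out, each gene met the minimum of 4 mice with the help of the *Acta2-tdT* group. The interaction, with 7 calls as deposited, gave 4 with a pseudocount of 0.1 (18.7%), 0 with quantile normalization (7.20%) and 5 to 10 without single mice (23.8% to 49.6%). Scaled, it gave 1 with quality weights (3.54%) and 1 without both mice (4.02%).

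The numbers in the labels did not pair the mice, since same-numbered mice of the lines correlated at -0.31 to 0.16. With the replicate block, 3 scaled calls remained between the lines with bleomycin in place of 5 (10.8% of all genes higher), and the interaction gave 6 as deposited in place of 7 (29.7%). The block left 10 calls between the lines with bleomycin as deposited, 0 with saline on both scales and 0 for the scaled interaction.

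Between the scales, *Ero1l* and *Txndc11* passed in opposite directions in *Acta2-tdT*. Within a scale, the log2 differences that turned under an alternative had not passed. With quantile normalization, *Pdia6* (-0.13) and *Calr* (-0.04) turned between the lines with saline, as did *Pdia6* (-0.12) with median ratio scaling. In *Acta2-tdT* after scaling, *Ddit3* turned to -0.04 with quality weights and to -0.01 with median ratio scaling and with receptor gene background subtracted, which also turned *Ern1* to 0.15 and *Sel1l* to 0.23 (0.05 with quality weights). *Sdf2l1* turned to -0.20 between the lines with bleomycin with median ratio scaling. The scaled interaction of *Ddit3* turned to -0.03 with a pseudocount of 0.1, -0.53 with quality weights, -0.14 with background subtracted and -0.21 without both mice, and that of *Xbp1* to -0.12 with quality weights. Without single mice the ranges that crossed 0 were, for bleomycin in *Pdgfra-tdT*, *Hspa5* -0.06 to 1.79 as deposited and -0.08 to 1.2 scaled, *Canx* -0.02 to 0.48 and *Ddit3* -0.20 to 0.23 scaled. Between the lines with saline they were *Pdia6* -0.34 to 0.86 as deposited and -0.39 to 0.64 scaled, and *Calr* -0.10 to 0.32 and -0.03 to 0.39. In *Acta2-tdT* scaled they were *Ddit3* -0.11 to 0.30, *Ern1* -0.24 to 0.18, *Ppp1r15a* -0.08 to 0.30 and *Sel1l* -0.07 to 0.05. They were also *Sdf2l1* -0.09 to 0.17 between the lines with bleomycin, and for the scaled interaction *Ddit3* -0.37 to 0.29 and *Xbp1* -0.42 to 0.80.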

Other observations

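Outside the 10 genes, 32 further genes of the deposited tables had an exact ERSE in the 300 bases of promoter searched. Most were too low to test, and 7 were tested between bleomycin and saline in *Acta2-tdT*. As deposited 6 were higher and 1 lower, where 70.4% of all genes tested were called higher. After scaling 3 were higher and 2 lower, with a median log2 difference of 0.17. On that scale 23.9% of all genes were called higher and 56.6% in either direction. The 3 were *Creld2*, *Dnajc3*, which encodes an ER cofactor of BiP, and *Syvn1*, the ubiquitin ligase of ER-associated degradation, the latter 2 named after their values were seen. In the lists of pathway genes, the amino acid response core TGATGNAA was found in 6 of 13 promoters of the PERK and ATF4 branch, beside 3.97% of all promoters.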
